A study of Mus musculus with 8 samples.

Results

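The regions described here lie inside genes and carry a peak of each of Mta2, Mbd3 and Zbtb7a in mouse kidney cortex. Peaks of the 3 factors that shared at least 1 bp were merged into union regions on autosomes 1 to 19 and chromosome X. A region was kept if it held peaks of all 3 factors, was narrower than 4000 bp, and had its midpoint inside the span of a protein-coding gene and more than 1 kb from every end of such a gene. This gave 50739 regions of 164813 union regions, so the regions were selected on the presence of peaks, and their peak strength is given as a description. All 3 factors were present in 61.4% of all union regions, and 50.2% of the three-factor regions met the rule on place and width. Of 86034 union regions inside genes and under the width limit, 59.0% held all 3 factors. The other three-factor regions were 14020 at gene ends, 35871 between genes and 522 of 4000 bp or more.

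The cortex came from mice of genotype Mta2flx/flx, which carry loxP-flanked Mta2 alleles, at an age of 2 months. The labels name no Cre driver and no other treatment, and all 4 groups (Input chromatin and 1 antibody for each factor) share this genotype, age and tissue. In all groups chromatin was fixed with the crosslinker DSG at 2 mM and with 1% formaldehyde, and sheared to 100 to 1000 bp. Each group holds 2 biological replicates, but 1 peak list per factor stands for both, so no value has a spread over mice, and all comparisons below are descriptions without a test. The cortex mixes tubule, glomerular, vascular and immune cells, so a region cannot be assigned to a cell type, and few cells with a strong peak cannot be told apart from many cells with a weak one. The stated depth was 100 M paired-end reads a library, and the depth reached was not analysed here. A region without a peak of a factor was below the authors' threshold at that depth and cannot be read as unbound.

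Mta2 and Mbd3 belong to NuRD, the nucleosome remodelling and deacetylase complex, which joins a chromatin remodelling motor (Chd3, Chd4 or Chd5) to the histone deacetylases Hdac1 and Hdac2. Mta proteins form the scaffold that holds the deacetylases, and Mbd3 links the scaffold to the remodelling module. NuRD is found at active promoters and enhancers as well as at repressed genes. Zbtb7a (also called LRF) is a zinc finger factor of the BTB family that can bring NuRD to DNA and is best known for silencing fetal globin genes. Enhancers and alternative promoters often lie inside genes, where the host gene need not be the one they act on.

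Some regions contained an annotated transcript start, and the RefSeq windows around those starts, each running from 250 bases before to 50 bases after the start in GRCm38.p6, give the only sequence used here. The first set was chosen after the letters had been seen: among the 3 protein-coding windows in the regions of highest Zbtb7a fold, and the window where Zbtb7a stood highest above the NuRD subunits, it holds those that repeat 1 short word. The other such window, that of Zc3h4, holds 0 copies and is shown in the second set. They are the windows of Yipf6 (chrX:98937531-98937830, plus strand), Eif4g3 (chr4:137993205-137993504, plus strand) and the long non-coding RNA 4930488L21Rik inside Gnao1 (chr8:93813506-93813805, minus strand). Capitals mark each copy of CCGAA or its reverse complement TTCGG.
Yipf6: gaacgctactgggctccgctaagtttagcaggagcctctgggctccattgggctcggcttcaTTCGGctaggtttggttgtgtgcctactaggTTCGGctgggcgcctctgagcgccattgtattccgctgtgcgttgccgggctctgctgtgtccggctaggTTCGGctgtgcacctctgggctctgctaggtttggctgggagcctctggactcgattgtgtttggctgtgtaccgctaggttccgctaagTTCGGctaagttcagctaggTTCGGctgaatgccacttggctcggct
Eif4g3: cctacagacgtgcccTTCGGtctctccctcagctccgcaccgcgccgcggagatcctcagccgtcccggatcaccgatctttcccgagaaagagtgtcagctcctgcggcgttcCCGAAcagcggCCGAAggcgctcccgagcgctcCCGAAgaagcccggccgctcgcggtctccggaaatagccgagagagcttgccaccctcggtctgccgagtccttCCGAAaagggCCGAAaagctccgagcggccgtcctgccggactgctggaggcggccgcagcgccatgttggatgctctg
4930488L21Rik: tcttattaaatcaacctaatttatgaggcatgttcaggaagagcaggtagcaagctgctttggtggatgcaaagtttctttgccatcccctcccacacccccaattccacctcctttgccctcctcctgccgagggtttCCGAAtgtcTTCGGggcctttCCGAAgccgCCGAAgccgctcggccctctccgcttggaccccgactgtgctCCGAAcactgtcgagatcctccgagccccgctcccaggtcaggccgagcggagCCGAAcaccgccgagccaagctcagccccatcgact

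The windows of Yipf6, Eif4g3 and 4930488L21Rik held 5, 6 and 6 copies of this 5-letter word, counted on both strands without regard to overlap with other motifs. The word was chosen after these windows and their values had been seen. Of 32619 RefSeq start windows, 80.6% held no copy, 16.3% held 1, and 15 windows (0.0460%) held 5 or more. In the region of Yipf6, which encodes a Golgi membrane protein, the Zbtb7a fold enrichment was 362, against 21.7 for Mta2 and 23.5 for Mbd3. Fold enrichment is the authors' ratio of signal over background at the summit of a peak, and it is compared between factors below only as a percentile, the rank of the fold within that factor's own list, where 100 is the strongest peak. The Eif4g3 region, in a gene for a translation initiation factor, had folds of 17.5 for Mta2, 20.2 for Mbd3 and 127 for Zbtb7a. The region in Gnao1, which encodes a G protein subunit of neurons, had 4.85, 4.03 and 94.7 at the start of the non-coding RNA. The Zbtb7a summit lay 518 bp from the start in Yipf6, outside the window shown, 96 bp in Eif4g3 and 7 bp at 4930488L21Rik. All 3 regions stood above percentile 99 in the Zbtb7a list, whereas their NuRD percentiles ranged from 38.6 to 94.8.

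The other windows with 5 or more copies were not used to pick the word. Apart from the 4 windows in these 3 regions (Eif4g3 has 2 start entries), 6 windows lay in three-factor regions at gene ends and 5 in no union region. Zbtb7a folds at those 6 gene ends were 346 at Deaf1, which encodes a zinc finger factor, 225 at Commd3, 84.5 at Ube2m, 54.3 at Mboat7, 25.6 at Arhgap17 and 8.62 at Rpl12. NuRD percentiles at the same ends ran from 72.8 to 91.4. Of these 6 ends, 4 were at or above percentile 99 for Zbtb7a, beside 386 (4.39%) of all 8794 three-factor regions at gene ends that hold a start window. The 3 regions inside genes prompted the word and are no further case of it. The 5 windows without a peak belong to Dgkk and 4 entries named Rhox4. At gene ends with 3 copies 7 of 82 regions (8.54%), and with 4 copies 2 of 11, were at or above percentile 99. Inside genes these counts were 2 of 16 and 0 of 5. Without any copy 62 of 1653 regions inside genes (3.75%) stood as high, so most of the 99 regions at that height that hold a start window had no copy. What binds this word was not tested.

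The second set is shown because it spans the range of CpG content among strong regions. The windows of Zc3h4 (chr7:16400946-16401245, plus strand) and Anks3 (chr16:4964188-4964487, minus strand) are rich in CpG. Those of Slc6a19 (chr13:73692587-73692886, minus strand), Rcbtb2 (chr14:73142260-73142559, plus strand) and Slc4a4 (chr5:89027716-89028015, plus strand) are those of highest Mta2 fold among windows with fewer than 5 CpG in protein-coding genes. Capitals mark CpG dinucleotides.
Zc3h4: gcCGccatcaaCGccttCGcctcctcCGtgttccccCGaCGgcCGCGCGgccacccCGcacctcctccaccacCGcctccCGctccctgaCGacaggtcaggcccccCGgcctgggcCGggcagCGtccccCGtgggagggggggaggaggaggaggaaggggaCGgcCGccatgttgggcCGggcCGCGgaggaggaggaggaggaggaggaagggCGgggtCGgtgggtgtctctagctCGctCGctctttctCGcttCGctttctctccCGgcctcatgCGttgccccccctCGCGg
Anks3: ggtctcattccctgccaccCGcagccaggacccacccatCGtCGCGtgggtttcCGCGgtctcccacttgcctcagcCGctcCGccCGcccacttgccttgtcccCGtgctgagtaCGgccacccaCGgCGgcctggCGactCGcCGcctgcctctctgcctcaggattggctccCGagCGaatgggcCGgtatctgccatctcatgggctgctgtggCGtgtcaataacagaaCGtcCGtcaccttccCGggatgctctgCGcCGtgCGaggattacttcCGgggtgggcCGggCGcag
Slc6a19: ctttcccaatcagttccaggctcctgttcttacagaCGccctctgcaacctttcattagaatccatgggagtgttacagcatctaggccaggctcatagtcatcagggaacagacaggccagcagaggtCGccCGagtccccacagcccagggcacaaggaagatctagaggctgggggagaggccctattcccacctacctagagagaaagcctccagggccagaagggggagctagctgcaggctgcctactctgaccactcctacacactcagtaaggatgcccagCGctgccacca
Rcbtb2: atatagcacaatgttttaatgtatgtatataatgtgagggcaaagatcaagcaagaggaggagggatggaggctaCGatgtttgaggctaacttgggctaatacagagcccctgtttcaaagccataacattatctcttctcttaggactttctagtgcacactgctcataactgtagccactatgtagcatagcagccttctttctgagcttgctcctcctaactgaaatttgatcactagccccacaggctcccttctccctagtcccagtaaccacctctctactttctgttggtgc
Slc4a4: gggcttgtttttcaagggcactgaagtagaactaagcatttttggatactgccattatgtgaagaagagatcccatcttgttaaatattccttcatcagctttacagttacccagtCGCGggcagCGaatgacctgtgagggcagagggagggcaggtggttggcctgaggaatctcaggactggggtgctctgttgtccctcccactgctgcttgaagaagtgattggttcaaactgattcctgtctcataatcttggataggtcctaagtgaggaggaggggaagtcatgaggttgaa

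The Zc3h4 and Anks3 windows held 32 and 29 CpG, and the Slc6a19, Rcbtb2 and Slc4a4 windows held 4, 1 and 3. Folds for Mta2, Mbd3 and Zbtb7a were 37.1, 32.4 and 218 in the region of Zc3h4, a zinc finger protein that limits non-coding transcription, and 81.3, 79.5 and 93.9 in that of Anks3, a ciliary ankyrin repeat protein. At the internal start of Slc6a19, the neutral amino acid transporter of the proximal tubule brush border, they were 67.9, 70.2 and 73.8. The Rcbtb2 region had 62.8, 63.0 and 53.1. In Slc4a4, the basolateral sodium bicarbonate cotransporter of the same tubule segment, the start lies 211690 bp from the nearest gene end and the region's folds were 53.4, 54.6 and 34.4. Picked for their high Mta2 fold, all of these CpG-poor windows lie in regions above percentile 97 in each list. Their letters held no match to any of the 7 motifs searched below, and the Anks3 window held 1, the ETS core. The Zbtb7a summits lay 1209 bp from the start in Zc3h4 and 700 bp in Rcbtb2, outside the windows shown.

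Of 6671 annotated starts that lie inside genes and more than 1 kb from every end, 2507 (37.6%) fell in one of the regions. These were 1933 starts of protein-coding and 574 of long non-coding genes. Windows in the regions had a median GC content of 58.7% and a median of 14 CpG, against 48.0% and 4 CpG for the 3582 starts in no union region. The share of starts lying in a region was 15.3% (exact Clopper-Pearson 95% interval 14.0 to 16.7) with 0 to 4 CpG in the window. It was 30.0% (27.9 to 32.2) with 5 to 9 CpG, 57.4% (54.3 to 60.4) with 10 to 19, and 80.9% (78.5 to 83.1) with 20 or more. These intervals cover counting error over single starts only and hold no spread over mice. Several starts can share 1 region: with 20 or more CpG, 969 starts lay in 784 regions. The order from CpG-poor to CpG-rich starts is therefore a description of these lists and not a test. The median fold of the regions was similar in the 2 lower classes, 10.4 and 10.2 for Mta2 and 8.81 and 9.01 for Zbtb7a. It was higher in the upper classes, 13.2 and 18.2 for Mta2 and 12.6 and 18.9 for Zbtb7a.

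**Figure D1:**
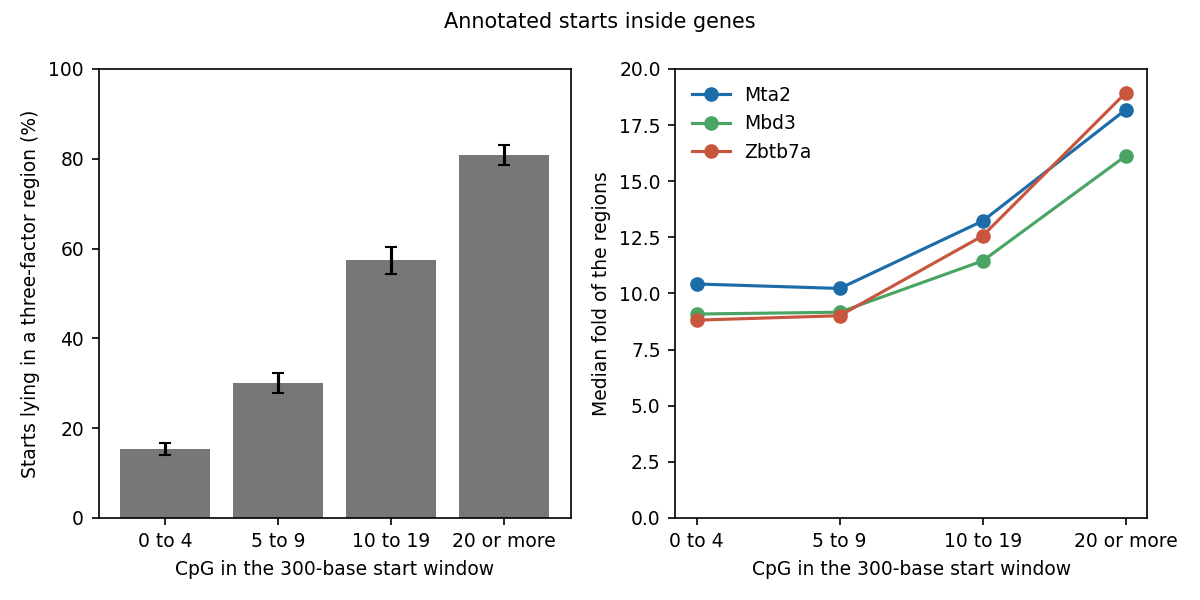
Left, the share of annotated starts inside genes that lie in a three-factor region (percent, with exact 95% binomial intervals) against the number of CpG in the 300-base window. Right, the median fold of Mta2, Mbd3 and Zbtb7a in those regions. The share climbs from 15.3% to 80.9%, while the folds climb only from 10 CpG upward.

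Starts near gene ends were CpG-rich more often, and they lay in a region more often. Of starts 1 to 5 kb from the nearest end, 45.2% lay in a region and 51.0% had at least 10 CpG. At 5 to 20 kb these shares were 38.0% and 29.4%, at 20 to 100 kb 31.4% and 20.6%, and beyond 100 kb 20.2% and 15.5%. Whether distance acts apart from CpG content was not tested.

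Regions with an annotated start were few but strong. They were 2046 of the 49055 regions on chromosomes for which windows were used, or 4.17%. Their median width was 1257 bp, against 594 bp without a start. Median folds with a start were 13.9 for Mta2, 12.2 for Mbd3 and 13.0 for Zbtb7a, against 6.84, 5.82 and 5.34 without. All 3 factors reached percentile 90 in 22.2% of regions with a start and 6.50% without. Among the 100 regions of highest Zbtb7a fold 34 held a start, compared with 18 for Mta2 and 13 for Mbd3, so the top of the Zbtb7a ranking held internal starts more often than the top of the others. Most regions in each of these top lists held no annotated start.

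Of 7 short motifs searched on both strands of the start windows, overlaps between motifs allowed, the ETS core and the GC box differed most between windows in the regions and in no region. The ETS core CCGGAAG was present in 9.57% of windows in a region, 2.04% of windows in no union region and 8.92% of all windows. The GC box GGGGCGGGG was present in 16.1%, 2.85% and 11.5%. The box itself holds a CpG, and its share was not split by CpG content. Within windows of 10 or more CpG the ETS core was found in 13.1% in a region (207 of 1577) and 5.41% in no region (19 of 351). The cyclic AMP response element TGACGTCA was found in 1.64%, 0.642% and 1.80%, but in 2.03% and 1.99% of CpG-rich windows in and out of regions. The letters CGACCACC, taken as a Zbtb7a core, were found in 13 windows in a region (0.519%), 13 in none (0.363%) and 0.340% of all windows. Within CpG classes they were less frequent in the regions, at 0 of 930 against 0.248% under 10 CpG and 0.824% (13 of 1577) against 1.42% (5 of 351) from 10 CpG upward.

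Motifs without CpG differed in either direction. The Hnf4 site CAAAGTCCA was present in 20 windows in a region (0.798%), 0.307% in none and 0.478% of all, and among windows of fewer than 10 CpG in 1.61% (15 of 930) against 0.340% (11 of 3231). Hnf4 factors drive proximal tubule genes. The AP-1 site TGANTCA was present in 6.38%, 9.77% and 7.85%, and in 10.6% and 10.2% of CpG-poor windows in and out of regions. The estrogen-related receptor site TCAAGGTCA was present in 5 windows in a region (0.199%), 0.614% in none and 0.426% of all. A match here is a run of letters and not a measured site.

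Across all 50739 regions the folds were moderate. Median fold was 6.99 for Mta2 (quartiles 4.53 and 12.2, highest 174), 5.94 for Mbd3 (4.02 and 10.5, highest 97.7) and 5.45 for Zbtb7a (3.67 and 9.85, highest 362). The deposited −log10 q had medians of 37.2, 28.3 and 21.7. In percentiles of their own lists, the medians were 62.1, 57.9 and 54.2. For scale, percentile 90 corresponds to a fold of 18.6 for Mta2, 17.7 for Mbd3 and 18.8 for Zbtb7a. The median region was 608 bp wide (quartiles 437 and 916) and lay 18953 bp from the nearest gene end (6918 and 47803.5).

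Gene ends differed most from the other places. Three-factor regions at gene ends had median percentiles of 83.0 for Mta2, 81.8 for Mbd3 and 81.8 for Zbtb7a, and a median width of 1148 bp. Three-factor regions between genes had 63.2, 57.9 and 53.3 and a median width of 571 bp, close to those inside genes for each factor. Regions inside genes that lacked 1 or 2 of the factors had median folds between 2.64 and 3.55 in every make-up. The most frequent of these were Mta2 alone (12590, 14.6% of regions inside genes) and Mta2 with Mbd3 (9741, 11.3%). The regions between genes and at gene ends were compared without a test, as there is 1 list per factor.

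**Figure D2:**
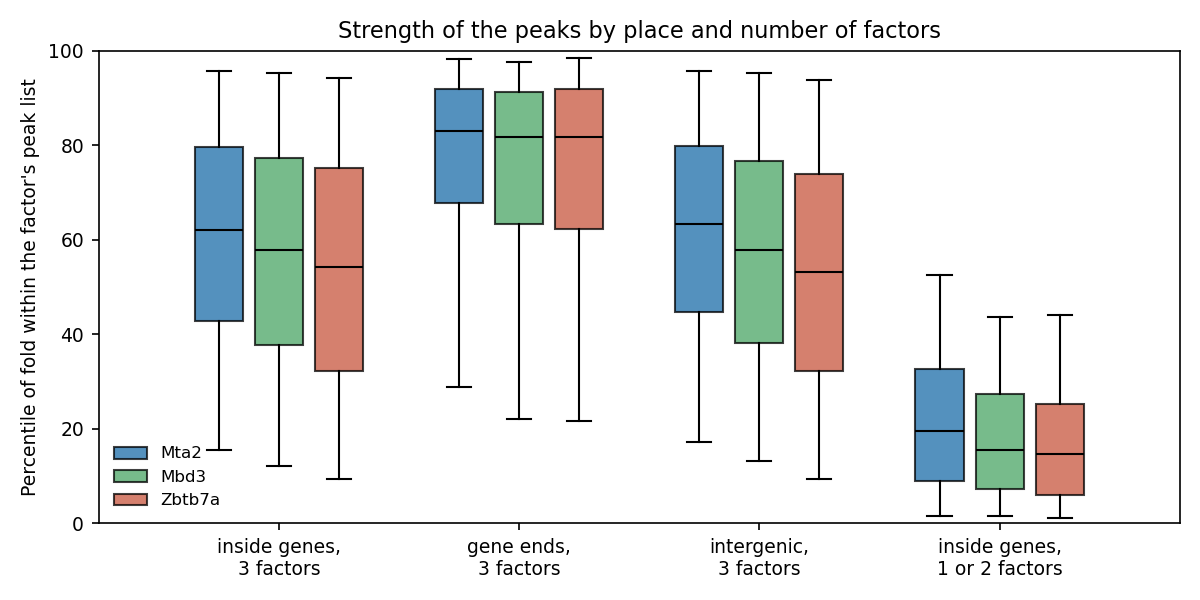
Percentile of the fold within each factor's peak list for 4 classes of region. Boxes show quartiles with the median and whiskers the 5th and 95th percentiles. Three-factor regions inside genes and between genes sit at like heights, those at gene ends higher, and regions inside genes with 1 or 2 factors lower.

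The summits of the 3 factors lay close together. Exactly 1 peak of each factor was present in 90.7% of the regions, and the 3 strongest summits fell within 100 bp in 42859 (84.5%). The median distance was 22 bp between Mta2 and Mbd3, 26 bp between Mta2 and Zbtb7a and 25 bp between Mbd3 and Zbtb7a. The 95th percentile of the distance was 140, 211 and 197 bp, so the pairs with Zbtb7a had the longer tail. Of the 5 regions of highest Zbtb7a fold, those of Yipf6 and Zc3h4 had distant summits, spanning 867 and 1172 bp. The others, in Nedd4l, Tpcn2 and Eif4g3, had summits spanning 12, 47 and 133 bp. Folds of the 2 NuRD subunits had a Spearman correlation across regions of 0.91, and those of Zbtb7a one of 0.83 with Mta2 and 0.87 with Mbd3. The regions are not replicates and the same tissue underlies all lists.

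All 3 factors reached percentile 90 in 3621 regions (7.14%), called strong regions below. All 3 were above their list medians in 24395 (48.1%) and at or below them in 13438 (26.5%). The Zbtb7a percentile was within 20 points of the mean of Mta2 and Mbd3 in 42305 regions (83.4%), more than 20 points above in 1630 (3.21%) and more than 20 below in 6804 (13.4%). Mta2 was within 20 points of Mbd3 in 45059 (88.8%).

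**Figure D3:**
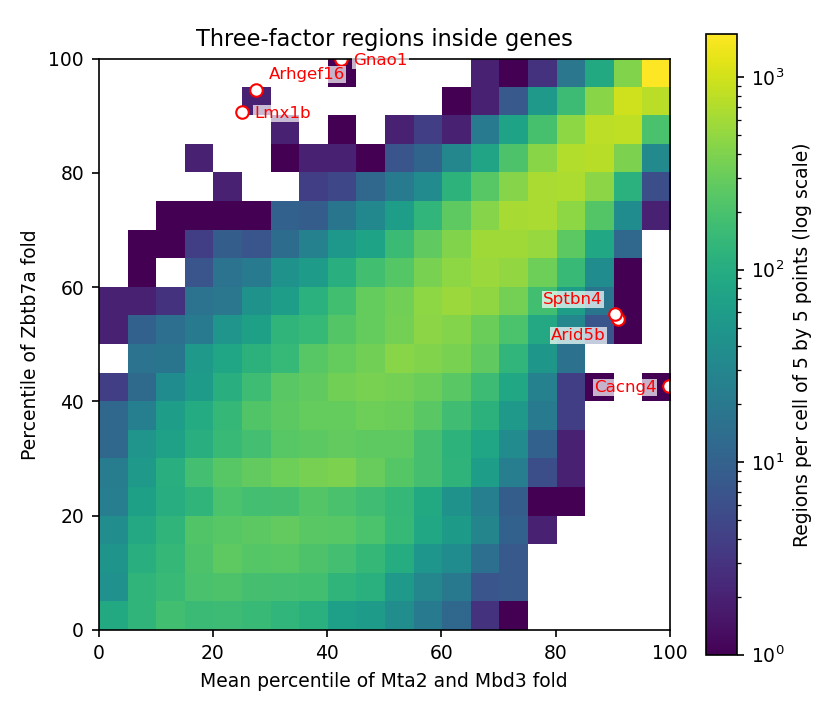
Percentile of the Zbtb7a fold against the mean percentile of the Mta2 and Mbd3 folds, as the number of regions per cell of 5 by 5 points on a log colour scale. Circles mark the 6 regions farthest from the diagonal among those with a percentile of at least 90. Most regions follow the diagonal, and the cells along its upper right end are fullest.

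The regions farthest from this diagonal were chosen for that difference, so their values are a description. In Arhgef16 (chr4:154279569-154280237), folds were 4.28 for Mta2, 2.92 for Mbd3 and 25.5 for Zbtb7a, and percentiles 39.6, 15.6 and 94.5. In Lmx1b (chr2:33605062-33606253), which encodes a podocyte transcription factor, they were 3.75, 3.02 and 19.5. The Gnao1 region described with its sequence above was the third. On the other side, a region in Cacng4 (chr11:107783979-107785580), a calcium channel subunit gene, had folds of 79.5, 45.5 and 4.34. Its Mta2 fold was the sixth highest of all the regions, and its Zbtb7a percentile was 42.7. Regions in Arid5b (chr10:68103491-68105939), a DNA-binding protein gene, and Sptbn4 (chr7:27407843-27409340), a spectrin gene, had folds of 25.0, 15.2 and 5.45, and of 31.1, 13.1 and 5.56. In these 3 the summits lay within 87 bp of each other.

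The strongest regions lay at varied distances from gene ends. On the chromosomes for which start windows were used, the 10 of highest Mta2 fold lay a median of 7899 bp from an end and the 10 of highest Mbd3 fold 31828.5 bp, beside 18746 bp for all regions there. The highest Mta2 fold, 174, was in Mllt10 (chr2:18055963-18058350), which encodes a cofactor of the histone methyltransferase Dot1l, 1996 bp from an end, where Mbd3 had 77.6 and Zbtb7a 65.1. Mpp7, a polarity scaffold gene, held the next Mta2 fold, 119. Folds there were 16.7 for Mbd3 and 21.7 for Zbtb7a, at percentiles of 88.8 and 92.4 in their own lists. The highest Mbd3 fold, 97.7, was in Tpcn2 (chr7:145230103-145233134), a lysosomal channel gene, 23499 bp from an end, where Mta2 had 86.7 and Zbtb7a 129. Chd9 (chr8:90907457-90909733), a chromatin remodeller gene, had 80.9, 87.7 and 113. Tns1 (chr1:74057204-74060674), whose product ties actin to integrins, had 66.0, 86.5 and 120. In Tpcn2, Chd9 and Tns1 all 3 factors stood above percentile 99.9.

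Further strong regions by Mbd3 were in Auts2 (chr5:131599770-131601007), with folds of 79.4, 85.7 and 80.1, and in Ergic1 (chr17:26616192-26617361), a gene of traffic between endoplasmic reticulum and Golgi, with 61.0, 82.3 and 77.8. Nedd4l, the ubiquitin ligase that removes the epithelial sodium channel from the cell surface, held a region with 67.7, 60.2 and 162. The Zbtb7a order put Yipf6, Zc3h4, Nedd4l, Tpcn2 and Eif4g3 first. Of these, the regions of Yipf6 and Zc3h4 lay 1264 and 1339 bp from a gene end, close to the limit of 1 kb.

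The limits of the rule cut through like regions. The widest kept regions were in Arid5b, 3997 bp wide with folds of 21.8, 21.4 and 24.6, and Slit2, 3995 bp wide with 23.2, 18.0 and 17.2. The narrowest left out were in Ptprd, 4010 bp with 30.3, 31.8 and 38.7, and Agap1, 4017 bp with 41.1, 25.7 and 19.5. At the distance limit, regions of Rassf7 (26.9, 28.6 and 29.0) and Lox (6.15, 4.07 and 2.94) lay 1001 bp from an end and were kept. Those of Akna (19.7, 10.7 and 8.32) and Nhej1 (6.99, 5.49 and 5.45) lay at 1000 bp and were not.

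The region of highest Mta2 fold overlaps a microRNA gene, whose mature sequences are shown for that reason. The hairpin of Mir7655 (chr2:18057846-18057903, plus strand) lies in this Mllt10 region, and its mature forms from RefSeq GRCm38.p6 follow with the seed, bases 2 to 8, in capitals.
mmu-miR-7655-5p: cGGCCCACggagcuccuaaaga
mmu-miR-7655-3p: uUUAUGACgcuccgugggccug

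In all, 53 of 1005 annotated hairpins lay in 52 of the regions. Of these 52, 10 were strong ones, beside 3621 (7.14%) of all regions. No background share was computed for the 53 hairpins, so their number is a count only. The peaks mark chromatin over the hairpin's DNA, and no RNA was measured.

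At least 1 region lay in 10470 of 21631 protein-coding genes (48.4%). Of these, 3585 genes held 1, 4341 held 2 to 5, 1363 held 6 to 10, 767 held 11 to 20 and 414 held more. The last group held 13338 regions, or 26.3%. Longer genes held more: a region was found in 21.6% of genes with a span of 2 to 10 kb, 57.1% at 10 to 50 kb, 83.6% at 50 to 200 kb and 92.2% above. Per 100 kb of span the pooled density was 4.75, 6.17, 6.08 and 3.27, so the longest genes were the least dense. Over all genes it was 4.91.

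The genes with most regions were Arhgap26 (96), Gse1 (82), Pde4d (81), a cyclic AMP phosphodiesterase gene, Syn3 (80) and Arid1b (78), which encodes a subunit of the BAF remodelling complex. Msi2 (74), Itpr1 (72), the inositol trisphosphate receptor gene, Lrmda (72), Prkce (71), a protein kinase C gene, and Zbtb20 (71) followed. All 10 have long spans, the shortest being 338034 bp in Itpr1. Ranked by density among spans of at least 20 kb, none of them was among the top 10. The densest were Palm (40.2 regions per 100 kb), Kcnj15 (39.8), a potassium channel gene, Capn2 (39.7), a calpain gene, Rab20 (39.6) and Slc7a7 (39.5), the basolateral exporter of cationic amino acids in the proximal tubule. A strong region was held by 2246 genes (10.4%), most by Vps13d with 12, a lipid transfer protein gene, and Gse1 with 11.

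Neighbouring regions of a gene lay a median of 4296 bp apart (quartiles 2112 and 10427), and 54.9% of 41009 gaps were within 5 kb. Along 5931 genes of at least 20 kb whose strand was known, 11.9% of 36667 region and gene pairs lay in the first 10% of the span and 7.50% in the last 10%. Within 10 kb of the 5′ end there were 5875, against 3561 within 10 kb of the 3′ end. Regions inside genes lacking 1 or 2 factors showed a like slope, with 11.5% in the first 10% of the span and 7.87% in the last.

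**Figure D4:**
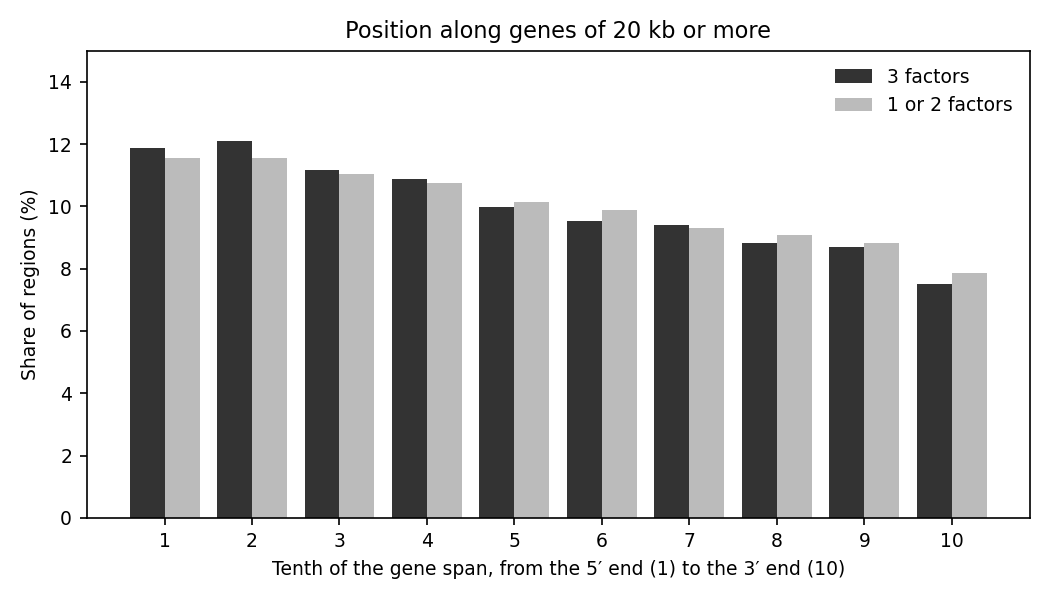
Share of regions (percent) in each 10% step of the gene span from the 5′ to the 3′ end, in genes of 20 kb or more, for regions with 3 factors and with 1 or 2 factors. Both are lower toward the 3′ end, with 11.9% in the first step and 7.50% in the last for 3 factors.

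Most genes with a region inside also had a three-factor region at an own end, namely 7865 of 10470 (75.1%). The other 2605 (24.9%) did not, among them Pde4d, Arid1b, Nedd4l (67 regions), Zmiz1 (66) and Mast4 (63). Among genes without a region inside, 5526 (25.5% of all protein-coding genes) had a three-factor region at an own end and 5635 (26.1%) did not. An end region was thus common in genes without a region inside as well, and these shares were not matched for gene span. Where both were present, the strongest region inside exceeded the end in 39.4% of genes by Mta2, 39.7% by Mbd3 and 35.4% by Zbtb7a. With exactly 1 region inside (2538 genes) these shares were 20.1%, 19.8% and 19.3%.

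The regions per gene were then read by gene group, beside the 48.4% of all protein-coding genes that held 1 and their density of 4.91 per 100 kb. Median gene span, 17.3 kb for all genes, is given for lists of long genes and for some of short genes. Folds given for a listed gene are the highest of each factor over its regions, and the 3 need not come from the same region. Occupancy was higher in longer genes. Of the genes for nephron transport and its segments, proximal tubule genes were the densest, pooled and by the median gene. In that list 26 of 30 genes held a region, at 12.5 per 100 kb, and 10 held a strong one. Slc4a4 held 37, Lrp2 22 and Slc7a7 20; Lrp2 encodes megalin, the endocytic receptor for filtered proteins, and its strongest folds were 47.1, 48.7 and 40.3. The androgen-regulated Kap and the inositol oxygenase gene Miox, with spans of 3.81 and 2.54 kb, held none.

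In the thick ascending limb list 13 of 14 genes held a region at 5.27 per 100 kb, led by Cldn10 with 19, a paracellular sodium channel gene. The transporter gene Slc12a1 and Umod held 1 each. In the distal convoluted and connecting tubule list 10 of 14 did, at 5.71 and a median span of 80.2 kb, led by Stk39 with 26, the kinase that activates sodium chloride cotransport. Slc12a3, the cotransporter itself, held 6, with folds of up to 41.1, 41.2 and 38.7. Calb1 and Pvalb held none. In the collecting duct list 14 of 20 did, at 6.82, and Tfcp2l1, a transcription factor of that segment, led with 17 and folds of up to 60.8, 61.8 and 57.9. The water channel gene Aqp2 held none within its span of 5.49 kb.

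Podocyte genes held regions in 20 of 28 cases, at 4.63 per 100 kb and a median span of 74.7 kb, and 10 held a strong one. Arhgap24, which restrains Rac in podocytes, held 57, Myo1e 31 and the slit diaphragm scaffold gene Magi2 27. Col4a3, a collagen chain of the glomerular basement membrane, had the highest Mta2 fold of the list at 56.1. The laminin gene Lamb2 and Foxc2 held none. Of the 36 genes of focal segmental glomerulosclerosis and nephrotic syndrome, 29 held a region at 5.59 per 100 kb and a median span of 53.5 kb, including Kank1 with 33, and Anln and Coq6 held none. These lists share members.

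All 16 endothelial genes held a region, at 9.76 per 100 kb and a median span of 44.6 kb, led by Flt1 (21), a receptor for vascular endothelial growth factors, Nrp1 (18) and Erg (12). Of the mesangial, stromal and smooth muscle genes 13 of 20 did, at 4.07, led by Itga8 with 7, and Acta2 and Col1a2 held none. Immune cell genes held a region in 4 of 16 cases, at 3.45 and a median span of only 6.39 kb. Of all genes with a span of 2 to 10 kb, 21.6% held a region. Csf1r, the receptor that macrophages depend on, held 6, and Adgre1 held none. Lists for tissues outside the kidney had densities below the 4.91 of all genes, as did the podocyte, mesangial and immune lists. Hepatocyte genes held a region in 9 of 18 cases at 3.85 and germ cell genes in 5 of 16 at 2.10, with median spans of 14.7 and 16.7 kb. Skeletal and heart muscle genes did so in 11 of 18 cases at 1.28. Neuronal genes did so in 17 of 18 cases, but with a median span of 1079 kb their density was 0.815.

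The balance of the NuRD subunits differed between these lists. Over all regions the Mta2 percentile was above the Mbd3 percentile in 61.2%. In endothelial genes it was above in 99 of 114 regions (86.8%), with medians of 68.0 for Mta2 and 53.2 for Mbd3. In mesangial, stromal and smooth muscle genes it was above in 29 of 37 (78.4%), with medians of 63.2 and 49.3. In proximal tubule genes it was above in 90 of 188 (47.9%), with medians of 62.9 and 59.8, and in distal convoluted and connecting tubule genes in 30 of 82 (36.6%), with 50.3 and 55.2. The share was 152 of 209 (72.7%) in TGF-beta genes, 22 of 55 (40.0%) in collecting duct genes and 1 of 12, the lowest, in germ cell genes. Of these 12 germ cell regions 8 lay in Tex14, where 0 had Mta2 above Mbd3, so the low share rests mainly on that gene. The median difference in Tex14 was only -0.556 points, with median percentiles of 98.8 for Mta2 and 99.4 for Mbd3. Podocyte genes lay near the background at 65.0%, and the other lists ranged from 40.0% to 65.1%.

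Gene by gene, the median difference in points between Mta2 and Mbd3 was positive in all 16 endothelial genes. It was 12.3 in Flt1, 14.0 in Nrp1, 13.8 in Erg, 10.3 in Pecam1, 14.5 in Kdr and 14.4 in Cdh5, the lowest being 1.38 in Egfl7. Of all 1360 genes with at least 10 regions, 74.6% had a positive median difference, but only 8.53% one of 10 points or more. Endothelial genes with fewer regions, among them Kdr with 5, Cdh5 with 3 and Egfl7 with 2, lie outside this background. In Pecam1, which encodes a junction protein of endothelium, the strongest folds were 30.4 for Mta2, 16.2 for Mbd3 and 16.2 for Zbtb7a. Their percentiles were 97.5, 88.1 and 87.2. In the proximal tubule list the median was positive in 10 of 26 genes. The sodium-proton exchanger gene Slc9a3 had none of 13 regions with Mta2 above Mbd3. This balance was noticed after the values had been seen, each gene's regions share 1 source, and its cause was not tested.

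Among regulators, 30 of 32 genes for kidney epithelial transcription factors held a region, at 10.6 per 100 kb and a median span of 69.0 kb, and 17 held a strong one. Zbtb20 held 71, Esrrg 54 and Nfia 53, and the glucocorticoid receptor gene Nr3c1 had the highest Mta2 fold of the list, with 68.7, 70.2 and 80.3. The short genes Maf and Irx3 held none. Of the nephron progenitor and patterning genes 15 of 22 did, at 10.8, led by Notch2 (29) and Pax8 (15). Wnt9b had the highest Mta2 fold of that list, with folds of up to 56.0, 55.6 and 73.4. Cited1 and Fgf8 held none.

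Genes of TGF-beta signalling and fibrosis had the highest pooled density of the 21 lists, 14.4 per 100 kb, with 18 of 24 genes holding a region and a median span of 68.1 kb. The order depends on the measure: the median density per gene was 7.96 in this list, against 16.3 for proximal tubule genes, 13.3 for epithelial transcription factors, 12.4 for actin regulators, 11.5 for endothelium and 8.01 for fatty acid oxidation. The signal transducer Smad3 held 36, the basement membrane collagen gene Col4a1 28 and the co-receptor gene Tgfbr3 28. Folds in Col4a1 reached 64.8, 62.2 and 78.4. The matrix genes Ccn2 and Col1a2 held none. All 30 actin regulators held a region, at 10.4 and a median span of 123 kb, and 18 held a strong one. Arhgap26 led with 96, followed by the polarity gene Pard3 with 67 and Arhgap24 with 57.

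In metabolism, 22 of 26 genes of fatty acid oxidation and the peroxisome held a region, at 11.4 per 100 kb, led by Pex14 with 22, Ppara with 14 and Cpt1a, which controls entry of fatty acids into mitochondria, with 9. Ppara, the nuclear receptor of this pathway, had folds of up to 40.9, 43.2 and 64.9. Acads and Acadvl held none. Of the citric acid cycle and oxidative phosphorylation genes 15 of 29 did, at 7.96, led by Suclg2 with 16. Ribosomal protein genes held a region in 5 of 30 cases, at 3.96, and none held a strong one. These genes are short, so little of their span lies more than 1 kb from both ends.

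The genes of NuRD itself held regions in 10 of 15 cases, at 7.78 per 100 kb. Gatad2a, whose product bridges Mbd3 to the remodeller, held 18 with folds of up to 25.1, 18.7 and 27.9. Mbd2 held 9 and Chd4, the main remodelling motor, 4. Mta2 itself held 2, with folds of up to 11.0, 7.23 and 11.0. Chd3 and Hdac1 held none.

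**Figure D5:**
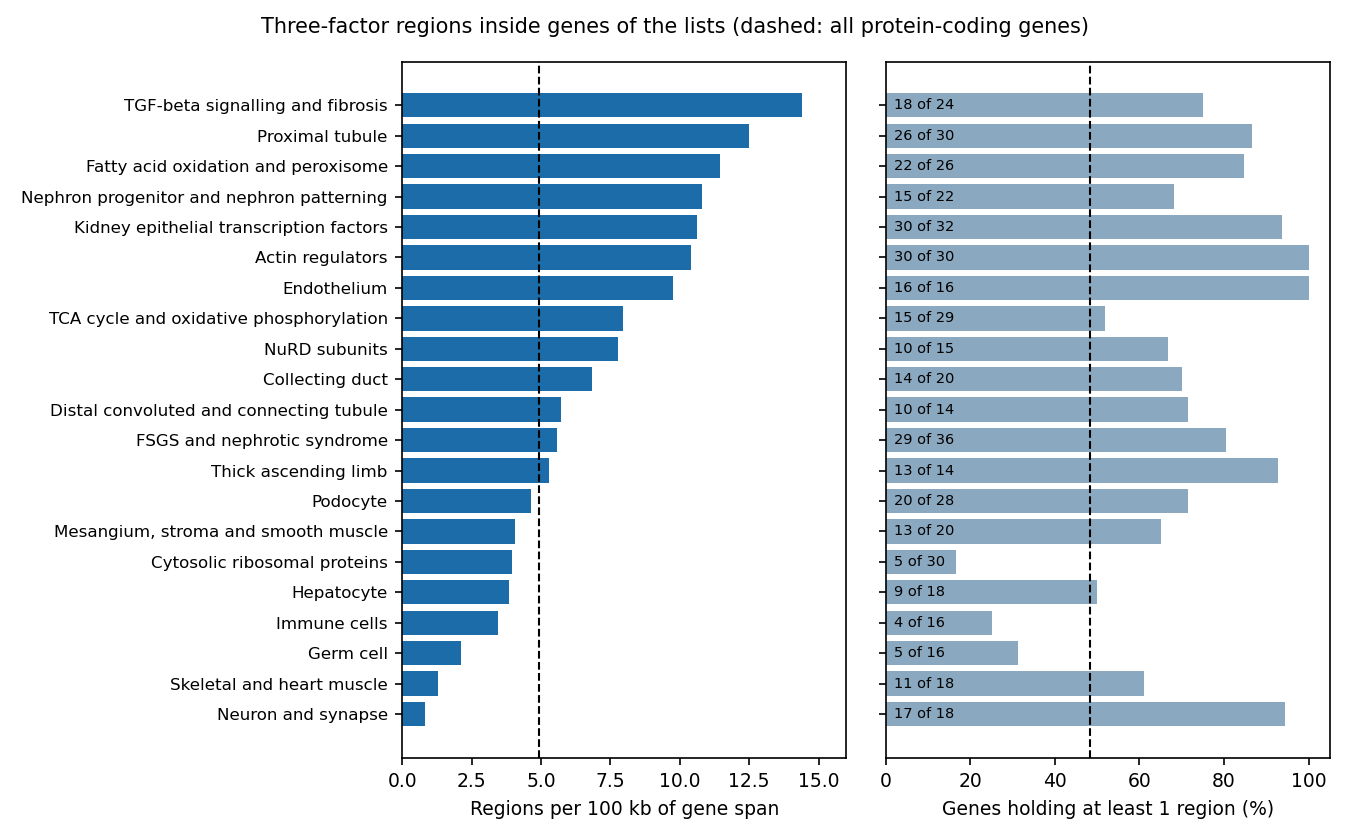
For each of 21 gene lists, the number of three-factor regions per 100 kb of pooled gene span (left) and the share of genes holding at least 1 (right, percent, with counts). Dashed lines give all protein-coding genes, 4.91 per 100 kb and 48.4%. TGF-beta and proximal tubule genes are the densest by this pooled measure, and neuronal genes are nearly all occupied at the lowest density.

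Per Mb of sequence covered by genes, there were 49.3 regions in all, and autosomes ranged from 41.6 on chromosome 1 to 64.9 on chromosome 11. Chromosome X had 13.8 (631 regions). The share of regions inside genes that held all 3 factors was nevertheless 56.3% on X and 57.1% to 60.6% on autosomes, and median folds on X were 6.68, 5.74 and 5.34. The sex of the mice is not given in the labels used here.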

How the data were processed

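Chromatin immunoprecipitation with sequencing gave 3 narrowPeak lists, 1 per factor. Per the submitters' processing notes, Bowtie2, MACS2, deepTools, bedtools and mm10 were used. How mice and Input were combined, and with which versions and settings, is not given in the sources used here. Each fold by the authors is a ratio of signal over background at the summit. The deposited −log10 q-value served to describe and filter peaks. The deposited score was not used, and the deposited summit offset placed summits.

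Gene spans were RefSeq's for GRCm38.p6, whose coordinates are those of mm10, and exons were not used. "Every gene end" was read as ends of protein-coding genes. Planned sequence counts at summits were not run, as no genome was used here, and were replaced by RefSeq start windows. Windows on chromosome 18 were not used. Python 3.11.15, pandas 2.3.3, numpy 2.4.6, scipy 1.17.1 and matplotlib 3.10.9 were used, and the merging code was tested on simulated data. A region's fold is that of its strongest peak per factor, and a listed gene's is the highest per factor over its regions.

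The regions and the 21 gene lists (439 symbols, 438 matched by symbol and 1 by synonym) were chosen with earlier results of these data known. Named regions were the 5 of highest fold per factor, the 5 whose lowest percentile was highest, and the 3 farthest on each side in Zbtb7a against NuRD among those with a percentile of at least 90. Named genes were the 10 with most regions, the 5 densest from 20 kb, and per list the 3 with most, the highest Mta2 fold and up to 2 without a region. Other genes named for balance, for strong regions or within a list (among them Slc12a1, Umod, Mta2, Pecam1, Slc9a3) were chosen after their values were seen. Some results named by these rules are not reported here. Alternatives are given in the closing section.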

Additional observations from a re-analysis of the deposited data

Results flagged for a closer look

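Chromosome Y lies outside the chromosomes analysed, and it held 60 union regions with peaks of all 3 factors. They are peak calls outside the data compared above, and no control list was compared with them. The regions on Y were not used in any value above.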

How the results depend on the processing

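The number of regions was 33621 with only peaks of −log10 q of at least 10 and 31370 with a fold of at least 4, and 5591 genes held a region more than 10 kb from gene ends. The share of three-factor regions that met the rule, 50.2%, was 47.9% and 47.5% with those peak thresholds, 48.1% under 2000 bp of width, 44.8% and 33.5% beyond 3 and 10 kb from ends, 48.4% with ends of non-coding genes, 49.5% without predicted models, 48.8% with the whole region clear of ends and 47.6% also 1 kb from annotated starts. Median folds of Mta2, Mbd3 and Zbtb7a were 9.80, 8.46 and 7.84 at −log10 q of at least 10, 10.4, 8.93 and 8.31 at fold of at least 4, and 7.09, 6.04 and 5.56 with summits within 250 bp. They were 6.78, 5.74 and 5.25 under 2000 bp, 6.96, 5.87 and 5.25 beyond 10 kb, 6.92, 5.87 and 5.38 with whole regions clear of ends, and 6.86, 5.84 and 5.34 away from starts; Zbtb7a was 5.40 beyond 3 kb. Beyond 3 kb, 5 hepatocyte and 2 ribosomal genes held a region, beside 40.1% of all genes. Of the 10 genes with most regions 0 were among the 10 densest. The share of starts in a region was 33.6% at −log10 q of at least 10 and 31.3% beyond 10 kb. Ranked by −log10 q, Mta2 was above Mbd3 in 86.0% of endothelial, 47.3% of proximal tubule and 62.7% of all regions. The alternatives on starts and on this balance were chosen after seeing the data. In all 84 of the recomputed values stayed within the interval of the reported one or, for counts, within 1.5 times. The other 40 did not. That interval covers counting error over single regions or starts only, for example 6.97 to 7.08 for the median Mta2 fold. It treats regions as if they were replicates and holds no spread over mice. Staying within it or leaving it is therefore a description and not a test. No paired analysis was possible because 1 list per factor stands for both mice, and leaving out a mouse was not run for the same reason. Depth limits which weak regions count as holding all 3 factors.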
